A study of Mus musculus with 24 samples.

Results

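The interferon regulatory factors described here were Irf1, Irf2, Irf3, Irf4, Irf5, Irf7, Irf8 and Irf9, 8 genes of the 54532 in the deposited gene table. They were taken by their symbols and not by a cut on their values, but earlier results of these data were known when they were chosen. The series comprised 24 polyA RNA-seq libraries of mouse cells grown from bone marrow, either macrophages (BMDMs, raised with L929 cell supernatant) or dendritic cells (BMDCs, raised with GM-CSF and IL-4), in 8 groups of 3 libraries. The mice carried Tmem173 fl/fl, a floxed allele of the gene for STING, in all groups and had received tamoxifen; those of the CRE-labelled groups also carried the Lzym-Creert2 driver, a tamoxifen-activated Cre under the Lyz2 promoter, which is active in myeloid cells, whereas the WT-labelled groups had the floxed allele alone. Cells labelled DX were stimulated with DMXAA, a small-molecule agonist of mouse STING, at a stated 40 μM (the study's methods give a mass concentration instead), and those labelled CT served as the control. Neither a duration of exposure nor an age of the mice was tied to these libraries in the sources used here, and nothing in the labels stated whether libraries with different numbers came from separate mice or cultures, so p-values measured only the spread between these libraries.

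Interferon regulatory factors share a conserved DNA-binding domain at the N terminus and recognise GAAA-containing sites in interferon-stimulated response elements (ISREs). IRF3 is made constitutively and is activated by TBK1 once STING signals, IRF7 is an interferon-induced relative that amplifies type I interferon synthesis, and IRF9 is the DNA-binding subunit of the ISGF3 complex downstream of the interferon receptor. IRF1 is an interferon-γ- and NF-κB-inducible activator and IRF2 binds the same sites, often as its antagonist, whereas IRF5 acts in the MyD88 pathway, and IRF4 and IRF8 work with PU.1 in the development of myeloid and lymphoid cells.

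Several libraries stood apart before any comparison was made. Library totals were 15657347 to 18912887 counts. The 4 BMDM libraries numbered 3 held summed fibroblast markers of 12657 to 19149 CPM (counts scaled to a common library total) against 28.8 to 458 CPM in the 8 BMDM libraries numbered 1 and 2, summed macrophage markers of 42.5 to 71.6 CPM against 10475 to 22385 CPM, and summed leukocyte markers of 1.49 to 14.4 CPM against 2898 to 4102 CPM. C1qa and C1qb had no reads in any of these 4 libraries, so the macrophage label was not borne out by its defining markers there, and their values are given apart. Of the libraries kept, the WT-labelled BMDM pair numbered 2 carried the most fibroblast RNA (458 CPM in CT and 422 CPM in DX). BMDCs showed summed dendritic cell markers of 6126 to 10324 CPM (at most 659 CPM in BMDMs) and conventional dendritic cell 2 markers of 2531 to 7026 CPM (at most 14.6 CPM in BMDMs), beside macrophage markers of 2067 to 9121 CPM. The summed levels of the other marker lists in BMDM numbers 1 and 2, BMDM number 3 and BMDCs, in that order, were at most 643, 45.6 and 108 CPM for conventional dendritic cell 1, 154, 116 and 143 CPM for plasmacytoid dendritic cell, 32.3, 5.77 and 349 CPM for neutrophil, 1.71, 0.417 and 3.19 CPM for B and plasma cell, and 7.15, 0.822 and 15.1 CPM for T and NK cell markers.

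Tmem173 itself was still read in every CRE-labelled library and did not separate the labels of BMDCs. In BMDMs numbered 1 and 2 its FPKM (fragments per kilobase of transcript, normalised for library size) was 14.7 and 9.91 in WT CT, 31.8 and 22.8 in WT DX, 10.4 and 8.76 in CRE CT, and 9.12 and 10.1 in CRE DX. In BMDCs it ranged from 28.8 to 55.3 FPKM over the 6 WT-labelled libraries and from 19.7 to 36.8 FPKM over the 6 CRE-labelled ones, so that the ranges overlapped. BMDC libraries also lay close to each other across the genotype labels: the robust SD of the log2 ratio over abundant genes was 0.0873 (CT) and 0.112 (DX) between WT number 3 and CRE number 1, and 0.111 and 0.103 between WT number 2 and CRE number 3, whereas libraries within a BMDC group were 0.152 to 0.697 apart. The genotype labels of BMDCs are therefore given as labels only. In BMDMs the CRE-labelled libraries numbered 1 and 2 were also close, 0.0778 (CT) and 0.121 (DX) apart. The WT-labelled ones were 0.451 and 0.384 apart. Whether the 2 CRE-labelled libraries were separate cultures was not stated, so their likeness may understate the spread between cultures.

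Control cells had an interferon regulatory factor pool dominated by Irf5, which made up 56.0% ± 4.08 (SD, n = 2) of the summed FPKM of the 8 genes in WT CT BMDMs and 55.7% ± 1.13 (n = 3) in WT CT BMDCs. The remainder differed between the cell types: Irf8 came next in BMDMs, at 18.2% ± 3.84, and Irf4 in BMDCs, at 27.4% ± 0.795. Under DMXAA, Irf7 rose from 1.96% ± 1.22 to 56.1% ± 2.54 of the pool in WT-labelled BMDMs and from 0.491%, 0.679% and 0.645% to 29.8% ± 2.52 in WT-labelled BMDCs. The summed FPKM of the 8 genes was 151 and 86.8 in the WT CT BMDMs and 1545 and 1179 in their DX counterparts, and 234 to 249 and 733 to 786 in WT-labelled BMDCs. In the BMDM libraries numbered 3 the pool was small, 18.7 and 23.5 FPKM in CT and 49.1 and 56.3 FPKM in DX, with Irf1 the leading member in CT (41.1% and 44.7%) and Irf5 under 5% in all 4.

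**Figure D1:**
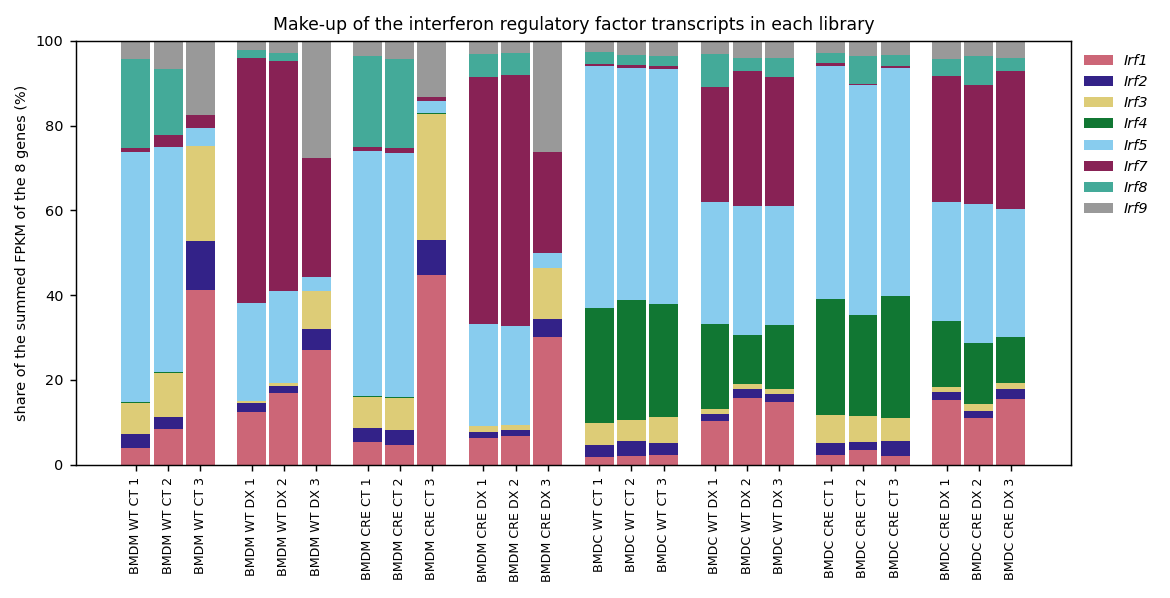
Share (%) of each interferon regulatory factor in the summed FPKM of the 8 genes, 1 stacked bar per library, grouped by cell type, genotype label and treatment. Irf5 is the largest share of every CT bar except those of the BMDM libraries numbered 3, Irf4 is visible in the BMDC bars alone, and Irf7 expands in all DX bars.

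Irf7 was the member that DMXAA raised most. The gene lies at chr7:141262706-141266481 on the minus strand of GRCm38 (ENSMUSG00000025498), and 45 bases of it overlap Phrf1 on the opposite strand. In WT-labelled BMDMs it went from 1.66 and 2.45 FPKM in CT to 893.6 and 639.6 FPKM in DX (log2 fold change 8.43 ± 0.31 SE, adjusted p = 1.15e-05, edgeR). In CRE-labelled BMDMs it went from 1.41 and 1.61 FPKM to 388.9 and 408.2 FPKM (8.02 ± 0.31, adjusted p = 3.33e-05). Every DX library was thus above every CT library by more than 2 orders of magnitude in these cells. In WT-labelled BMDCs Irf7 was at 1.21, 1.59 and 1.60 FPKM in CT and at 197.9, 237 and 239 FPKM in DX (7.23 ± 0.36, adjusted p = 2.00e-07), and in CRE-labelled BMDCs at 1.399, 0.589 and 1.403 FPKM and at 232, 176 and 245 FPKM (7.56 ± 0.37, adjusted p = 1.77e-07). The libraries numbered 3 of BMDMs, with their high fibroblast and low leukocyte markers, had Irf7 at 0.714 FPKM (WT CT), 15.8 FPKM (WT DX), 0.150 FPKM (CRE CT) and 11.6 FPKM (CRE DX), a DX to CT ratio of 22.2 and 77.5 with 1 library on each side and so no replicate check.

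Irf1 (chr11:53770014-53778374, plus strand, ENSMUSG00000018899), the inducible activator, had the next largest response. In WT-labelled BMDMs it stood at 6.01 and 7.201 FPKM in CT and at 190.4 and 200.3 FPKM in DX (log2 fold change 4.77 ± 0.16, edgeR adjusted p = 1.05e-05), and in CRE-labelled BMDMs at 7.90 and 7.12 FPKM and at 42.0 and 46.1 FPKM (2.53 ± 0.15, adjusted p = 0.000147). The control groups overlapped between the labels, whereas the DX groups were far apart. In BMDCs Irf1 rose under both labels. WT-labelled libraries had 4.30, 4.91 and 5.45 FPKM in CT and 74.9, 116 and 117 FPKM in DX (4.37 ± 0.30, adjusted p = 1.74e-06), and CRE-labelled libraries 5.62, 7.67 and 4.92 FPKM and 119, 69.8 and 118 FPKM (4.05 ± 0.30, adjusted p = 2.91e-06). In the BMDM libraries numbered 3, Irf1 was 9.65 (WT CT), 15.2 (WT DX), 8.36 (CRE CT) and 14.8 FPKM (CRE DX).

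Irf9, the DNA-binding subunit of ISGF3, rose in all 4 responses. The gene lies at chr14:55603571-55610030 on the plus strand (ENSMUSG00000002325) and shares 123 bases with Rnf31 on the same strand. In WT-labelled BMDMs it had 6.60 and 5.87 FPKM in CT and 34.6 and 34.1 FPKM in DX (log2 fold change 2.35 ± 0.13, edgeR adjusted p = 4.79e-05), and in CRE-labelled BMDMs 5.55 and 6.47 FPKM and 20.7 and 19.9 FPKM (1.73 ± 0.13, adjusted p = 0.000359). The CT libraries of both labels overlapped and the DX libraries did not. In BMDCs it had 6.84, 7.62 and 8.79 FPKM (WT CT) and 23.1, 30.0 and 32.6 FPKM (WT DX; 1.86 ± 0.20, adjusted p = 4.35e-05), and 7.10, 8.19 and 7.94 FPKM (CRE CT) and 33.04, 23.0 and 31.1 FPKM (CRE DX; 1.88 ± 0.20, adjusted p = 4.80e-05). The libraries numbered 3 of BMDMs had 4.12 and 15.6 FPKM under the WT label and 2.49 and 12.9 FPKM under the CRE label, in the order CT and DX.

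Irf2 (chr8:46739732-46847458, plus strand, ENSMUSG00000031627), which binds the same elements as Irf1, rose less than Irf1 in each response. In WT-labelled BMDMs it had 4.98 and 2.53 FPKM in CT and 32.8 and 19.3 FPKM in DX (log2 fold change 2.68 ± 0.36, edgeR adjusted p = 0.00176). In CRE-labelled BMDMs it had 5.26 and 5.33 FPKM and 9.56 and 9.70 FPKM, without overlap between CT and DX, and did not pass the test (0.84 ± 0.34, adjusted p = 0.175). In WT-labelled BMDCs it had 7.11, 7.90 and 7.52 FPKM in CT and 12.6, 17.0 and 15.1 FPKM in DX (0.96 ± 0.25, adjusted p = 0.0110), and in CRE-labelled BMDCs 7.12, 4.39 and 8.03 FPKM and 14.0, 9.71 and 16.2 FPKM (1.005 ± 0.25, adjusted p = 0.0111). The lowest BMDC value in each treatment of the CRE label came from the library numbered 2, and CT and DX did not overlap in either label. Within single libraries the ratio of Irf1 to Irf2 moved from 1.21 and 2.84 (CT) to 5.81 and 10.4 (DX) in WT-labelled BMDMs and from 0.605 to 0.725 (CT) to 5.96 to 7.75 (DX) in WT-labelled BMDCs.

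Irf5 (chr6:29526625-29541871, plus strand, ENSMUSG00000029771), the transcription factor of the MyD88 pathway, was the most abundant member in control cells. It overlaps Tnpo3 on the opposite strand over 1045 bases, and the libraries were made with a kit that does not mark strand. In WT-labelled BMDMs it had 89.2 and 46.1 FPKM in CT and 356 and 256 FPKM in DX (log2 fold change 2.07 ± 0.31, edgeR adjusted p = 0.00259). In CRE-labelled BMDMs it had 87.4 and 87.4 FPKM in CT and 160.2 and 160.3 FPKM in DX, without overlap, and the change did not pass the test in the fit over all BMDM groups (0.85 ± 0.30, adjusted p = 0.125). In BMDCs it went from 141, 128 and 138 FPKM to 211, 227 and 220 FPKM under the WT label (0.67 ± 0.12, adjusted p = 0.00173) and from 137, 122 and 124 FPKM to 219, 207 and 228 FPKM under the CRE label (0.75 ± 0.12, adjusted p = 0.00119). In the BMDM libraries numbered 3 it did not exceed 1.79 FPKM.

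Irf8 rose in BMDCs and did not pass the test in BMDMs. This partner of PU.1, known for its part in the identity of conventional dendritic cells 1 and of monocytes, lies at chr8:120736358-120756694 on the plus strand (ENSMUSG00000041515). Over its full span of 20337 bases, Irf8 overlaps Gm20388 on the same strand, which was at 0 CPM in every library. In BMDMs it had 31.6 and 13.4 FPKM (WT CT), 28.2 and 21.03 FPKM (WT DX), 32.2 and 31.9 FPKM (CRE CT) and 35.8 and 36.0 FPKM (CRE DX), with log2 fold changes of 0.02 ± 0.36 (95% interval -0.83 to 0.87) under the WT label and 0.14 ± 0.35 (-0.70 to 0.99) under the CRE label. The value of 13.4 FPKM came from WT CT number 2, which had the most fibroblast markers (458 CPM) among the control libraries tested. Its summed macrophage markers were 22385 CPM against 20691 CPM in WT CT number 1, and its leukocyte markers 3445 against 3940 CPM. The part of fibroblast RNA in that value was not tested. Without WT CT number 1 the WT-labelled change was 0.76, and without WT CT number 2 it was -0.44. In BMDCs Irf8 had 6.85, 5.88 and 6.06 FPKM (WT CT) and 57.4, 23.0 and 33.9 FPKM (WT DX; 2.57 ± 0.42, adjusted p = 0.000829), and 6.07, 14.8 and 5.57 FPKM (CRE CT) and 32.3, 42.7 and 23.6 FPKM (CRE DX; 1.87 ± 0.41, adjusted p = 0.00607). CT and DX did not overlap in either label of BMDCs, although the WT DX libraries ranged from 23.0 to 57.4 FPKM. No read of Irf8 was counted in any of the 4 BMDM libraries numbered 3, where 3 counts would correspond to 0.0174 to 0.0201 FPKM.

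Irf4 (chr13:30749226-30766976, plus strand, ENSMUSG00000021356), which the GM-CSF and IL-4 type of dendritic cell culture is known to express, was a BMDC transcript. It had 67.1, 66.3 and 66.5 FPKM in WT CT BMDCs and 148, 84.8 and 119 FPKM in WT DX BMDCs (log2 fold change 0.78 ± 0.21, edgeR adjusted p = 0.0135), and 68.0, 53.9 and 66.2 FPKM in CRE CT and 121, 89.9 and 83.3 FPKM in CRE DX (0.62 ± 0.21, adjusted p = 0.0473). The CRE-labelled call sat at the threshold: without CRE CT numbers 1, 2 or 3, or without CRE DX numbers 1 or 3, the adjusted p was 0.0818, 0.118, 0.0940, 0.173 and 0.0517, and without WT DX number 1 the WT-labelled change was 0.61 with an adjusted p of 0.0515. In BMDMs Irf4 did not exceed 0.354 FPKM and was not tested.

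Irf3 (chr7:44997648-45002848, plus strand, ENSMUSG00000003184; 1065 bases overlap Bcl2l12 on the opposite strand), the factor that STING activates through TBK1, was the only member whose estimate was below 0 in all 4 responses. In WT-labelled BMDCs it went from 12.9, 11.8 and 15.0 FPKM to 8.93, 9.04 and 8.78 FPKM (log2 fold change -0.59 ± 0.15, edgeR adjusted p = 0.00958). With no filter on low values Irf3 was not called there (-0.59, edgeR adjusted p = 0.0553). In CRE-labelled BMDCs it went from 16.5, 13.6 and 12.2 FPKM to 10.2, 10.7 and 11.1 FPKM, without overlap, which did not pass the test (-0.42 ± 0.15, adjusted p = 0.0542) but did so with the replicate block within the label (-0.41, adjusted p = 0.0373). In BMDMs it had 11.1 and 9.09 FPKM (WT CT), 9.12 and 8.59 FPKM (WT DX), 10.8 and 11.4 FPKM (CRE CT) and 9.46 and 9.36 FPKM (CRE DX), with estimates of -0.30 ± 0.13 and -0.26 ± 0.13 that did not pass. The ratio of Irf7 to Irf3 within a library went from 0.150 and 0.269 to 98.0 and 74.5 in WT-labelled BMDMs and from 0.0943 to 0.135 to 22.2 to 27.2 in WT-labelled BMDCs.

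**Figure D2:**
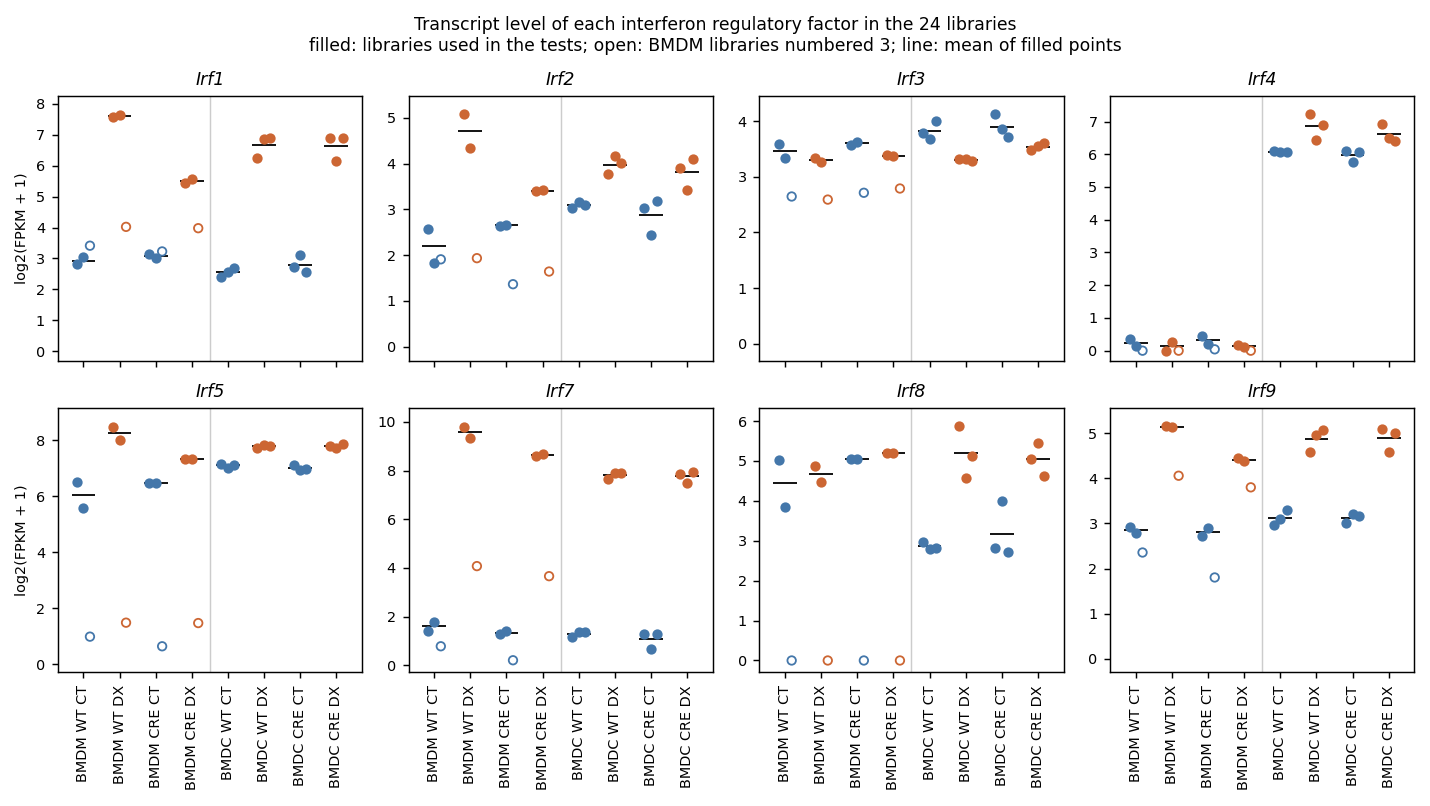
Transcript level, as log2(FPKM + 1), of each interferon regulatory factor in the 24 libraries, by group on the horizontal axis. Filled points are libraries that entered the tests, open points the BMDM libraries numbered 3, and lines the mean of the filled points; DX points of Irf1, Irf7 and Irf9 lie above all filled CT points, and Irf4 is near 0 in all BMDMs.

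Counted together, DMXAA raised 5 of the 7 members tested in WT-labelled BMDMs (Irf1, Irf2, Irf5, Irf7 and Irf9), where 39.2% of 11569 genes were called in either direction, and 3 of 7 in CRE-labelled BMDMs (Irf1, Irf7 and Irf9), where 10.0% were called. In WT-labelled BMDCs all 8 members passed, 7 higher and Irf3 lower, against 32.2% of 12126 genes, and in CRE-labelled BMDCs 7 passed, all higher, against 25.4%. A gene was called at an adjusted p under 0.05 over all genes tested. The median log2 fold change of the members was 2.35, 0.85, 1.41 and 1.44 in these 4 responses, beside -0.08, -0.01, 0.01 and -0.01 over all genes tested. With all 12 BMDM libraries in the fit, 0 members were called in either BMDM response, with estimates of 8.31 for Irf7 and 4.16 for Irf1 under the WT label; with the replicate number added as a block to that fit, 4 and 2 were called.

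The response depended in size on how libraries were scaled. With scaling by library totals instead of TMM, the median log2 fold change of all genes was -0.59 in WT-labelled BMDMs, -0.24 in CRE-labelled BMDMs, -0.35 in WT-labelled BMDCs and -0.34 in CRE-labelled BMDCs, and this turned the split of called genes from 2134 higher and 2397 lower to 1401 and 5432, from 842 and 315 to 682 and 866, from 2056 and 1848 to 1352 and 3737, and from 1702 and 1382 to 1192 and 3295. No called member changed its direction. In WT-labelled BMDCs Irf2 (0.60, edgeR adjusted p = 0.0856), Irf4 (0.42, adjusted p = 0.138) and Irf5 (0.31, adjusted p = 0.0730) were no longer called under that scaling, and in CRE-labelled BMDCs the same held for Irf2 (0.66, adjusted p = 0.0682) and Irf4 (0.29, adjusted p = 0.315). Irf3 was called lower under it in CRE-labelled BMDCs (-0.76, adjusted p = 0.00410) and in WT-labelled BMDMs (-0.81, adjusted p = 0.00341). The changes of all members are relative to the other genes of the same library, and in these responses the scaling moved calls of Irf2, Irf3, Irf4 and Irf5.

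**Figure D3:**
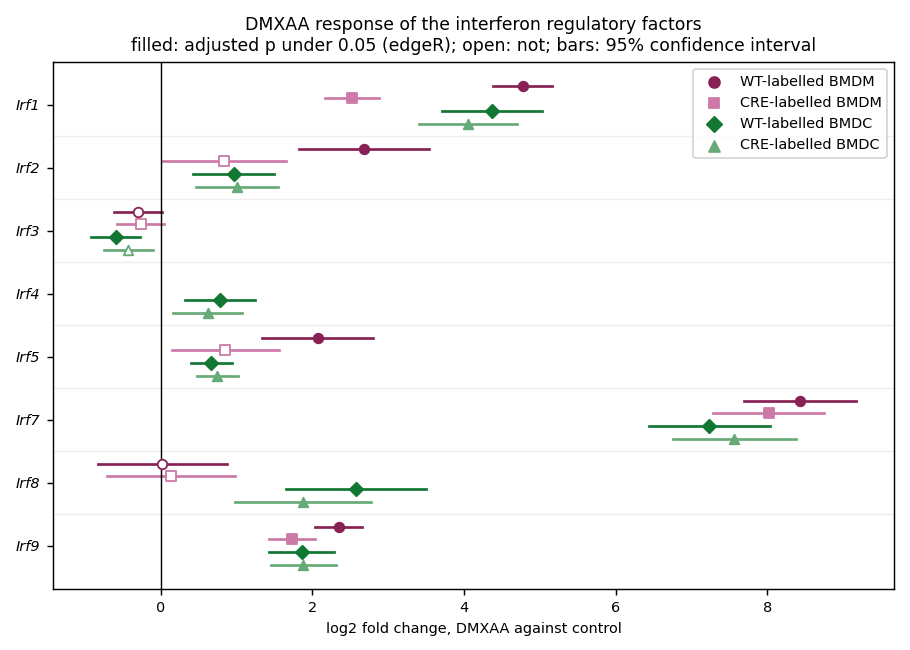
Log2 fold change of DMXAA against control for each member in WT- and CRE-labelled BMDMs (libraries numbered 1 and 2) and BMDCs, with 95% confidence intervals; filled symbols passed the edgeR test at an adjusted p under 0.05. Irf7, Irf1 and Irf9 lie to the right of 0 in all 4 responses, Irf3 to the left, and Irf8 moves in BMDCs.

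The design set the labels side by side to compare cells with and without a Cre aimed at Tmem173. Since Tmem173 was still read in the CRE-labelled libraries, and overlapped between the labels in control BMDMs, the values compare labels. In DX BMDMs numbered 1 and 2 Tmem173 did not overlap (31.8 and 22.8 FPKM under the WT label, 9.12 and 10.1 FPKM under the CRE label). Without the agonist, 0 of the 7 members tested differed between CRE- and WT-labelled BMDMs, where 0.0432% of all genes were called; the estimates ran from -0.48 (Irf7, 95% interval -1.08 to 0.11) to 0.48 (Irf8, -0.37 to 1.32). Without WT CT number 1, Irf8 passed the test, higher with CRE (log2 fold change 1.2002, adjusted p = 0.0429, edgeR). Under DMXAA, 4 members were lower in CRE-labelled BMDMs, with 19.3% of all genes called: Irf1 by 4.29-fold (log2 fold change -2.10 ± 0.15, adjusted p = 0.00111), Irf2 by 2.61-fold (-1.38 ± 0.34, adjusted p = 0.0349), Irf7 by 1.86-fold (-0.89 ± 0.22, adjusted p = 0.0364) and Irf9 by 1.64-fold (-0.71 ± 0.12, adjusted p = 0.0112). Irf5 had a similar estimate to Irf7 and missed the threshold (-0.88 ± 0.30, adjusted p = 0.0848), while Irf3 (0.14, -0.18 to 0.45) and Irf8 (0.60, -0.25 to 1.45) had intervals on both sides of 0. Leaving out 1 library ended some of these calls: without WT DX number 1, Irf2 (-0.97, adjusted p = 0.119) and Irf7 (-0.65, adjusted p = 0.115) were lost, and without CRE DX number 1 or number 2 only Irf1 was still called. With totals scaling, which turned the split of called genes from 1071 higher and 1157 lower to 2078 and 850, Irf7 gave -0.65 (adjusted p = 0.0515), and with all 12 BMDM libraries 0 members were called.

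The test of the difference itself, the interaction of label and DMXAA, was passed by Irf1 in BMDMs, with 3.66% of all genes called (160 higher and 264 lower, or 373 and 189 under totals scaling). Its rise was smaller under the CRE label by 2.25 ± 0.20 on the log2 scale (edgeR adjusted p = 0.0105), and in FPKM the CRE-labelled rise of 36.5 was 19.3% of the WT-labelled rise of 189. Irf2 kept 19.5% of the WT-labelled rise (interaction -1.84 ± 0.48, adjusted p = 0.0943) and Irf5 30.6% (-1.22 ± 0.42, adjusted p = 0.168), against 51.9% for Irf7 (-0.41 ± 0.33, adjusted p = 0.561) and 50.8% for Irf9 (-0.62 ± 0.18, adjusted p = 0.113). None of these 4 passed. The kept shares depend on the scaling of the deposited FPKM. Its library size was 0.687 and 0.771 times the count total in WT DX and 0.891 and 0.884 times in CRE DX. DESeq2 called Irf1, Irf2, Irf5 and Irf9 in the interaction, and edgeR with the replicate number as a block within the label called Irf1, Irf2 (-1.87, adjusted p = 0.00365) and Irf5 (-1.27, adjusted p = 0.0113). Over the alternatives other than all BMDM libraries, calls over all genes in this interaction ran from 0 to 1702. Within their groups the CRE-labelled libraries were 0.0778 (CT) and 0.121 (DX) apart, so the spread behind the edgeR adjusted p of 0.0105 may be understated. When 1 of these 4 libraries was left out, its arm had 1 library and the call was lost. The Irf1 estimate stayed between -2.34 and -2.19 in these fits. It was -2.02 with all 12 BMDM libraries (adjusted p = 1) and -1.84 with the replicate block on top (adjusted p = 0.999).

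In BMDCs no member differed between the labels: 0 of 8 were called in CT, in DX and in the interaction, and so were 0% of the 12126 genes in all 3 comparisons. At an unadjusted p under 0.05 there were 99, 108 and 60 genes, and DESeq2 called 0, 0 and 1. Under DMXAA the member estimates ran from -0.24 (Irf4, 95% interval -0.70 to 0.21) to 0.27 (Irf3, -0.06 to 0.59), and Irf1 (0.00, -0.57 to 0.57) and Irf7 (-0.04, -0.64 to 0.56) were near 0. In CT the estimates ran from -0.37 (Irf7, -1.02 to 0.28) to 0.50 (Irf8, -0.37 to 1.38), and in the interaction from -0.70 (Irf8, -1.93 to 0.53) to 0.33 (Irf7, -0.55 to 1.21). Intervals that reach beyond 1 on the log2 scale, as for Irf8 and Irf7, leave room for differences of more than 2-fold. The CRE-labelled libraries numbered 2 were the source of the outlying control values, with Irf8 at 14.8 FPKM, Irf7 at 0.589 FPKM and Irf2 at 4.39 FPKM. The same libraries differed in markers, with summed neutrophil markers of 349 (CT) and 162 CPM (DX) against 7.13 to 23.1 CPM in the other 10 BMDC libraries and summed macrophage markers of 2202 and 2067 CPM against 6086 to 9121 CPM. The part of these markers and the part of the closeness of other libraries across labels in these results were not tested.

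**Figure D4:**
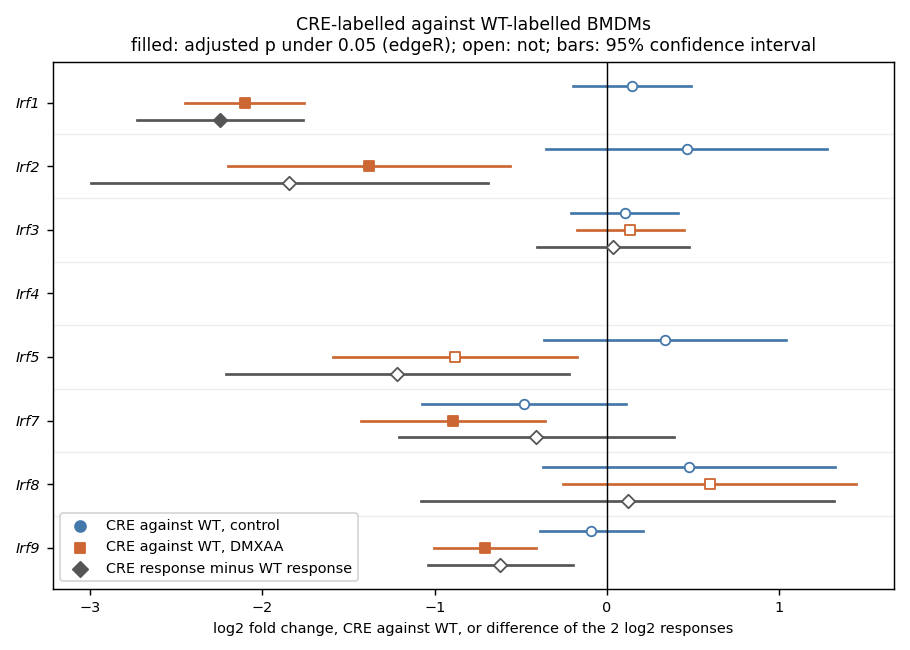
Estimates with 95% confidence intervals for CRE against WT labels in BMDMs numbered 1 and 2, in control and DMXAA-treated cells, and for the difference of the log2 responses. Filled symbols passed at an adjusted p under 0.05; Irf1 is the member that passed in the interaction, and all control estimates are open. Irf4 was not tested.

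Between the cell types of the WT label, Irf4 and Irf8 went opposite ways in control cells. Irf4 was higher in BMDCs than in BMDMs by 8.41 ± 0.63 on the log2 scale in CT (edgeR adjusted p = 1.65e-07) and by 10.11 ± 0.69 in DX (adjusted p = 7.34e-08), where WT DX BMDM number 1 had 0 reads and number 2 had 14. Irf8 was 3.74-fold lower in CT BMDCs (-1.90 ± 0.43, adjusted p = 0.00342), and Irf5 (0.94 ± 0.21, adjusted p = 0.00355) and Irf2 (0.94 ± 0.32, adjusted p = 0.0362) were higher; 28.5% of 13368 genes were called. The ratio of Irf8 to Irf4 within a library was 117 and 126 in WT CT BMDMs and 0.0887 to 0.102 in WT CT BMDCs. Fewer cells of a type and less RNA per cell cannot be told apart in such bulk libraries. The Irf8 difference was -1.14 (adjusted p = 0.124) without WT CT BMDM number 1, and that of Irf2 was not called without WT CT BMDM number 2 (0.58, adjusted p = 0.269) or without any of the WT CT BMDC libraries (adjusted p = 0.0530 to 0.0619).

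Under DMXAA, Irf7 was 3.29-fold lower in BMDCs than in BMDMs (log2 fold change -1.72 ± 0.28, edgeR adjusted p = 0.000295) and Irf1 1.83-fold lower (-0.88 ± 0.24, adjusted p = 0.0129), with 30.6% of genes called (2049 higher and 2043 lower, or 2724 and 1473 under totals scaling); the latter was lost without WT DX BMDM number 1 (adjusted p = 0.0525) or number 2 (adjusted p = 0.0687), and without WT DX BMDC number 1 (adjusted p = 0.0523). The response differed between the cell types for Irf5, smaller in BMDCs (interaction -1.37 ± 0.30, adjusted p = 0.0218), and Irf8, larger in BMDCs (2.58 ± 0.62, adjusted p = 0.0381), where 2.61% of genes were called (118 higher and 231 lower, or 143 and 177 under totals scaling). Irf2 was just outside (-1.69 ± 0.44, adjusted p = 0.0530), and Irf7 was not called (-1.18 ± 0.42, adjusted p = 0.178). These interaction calls depended on single libraries. That of Irf5 was lost without WT DX BMDM number 1 (-1.19, adjusted p = 0.103), and that of Irf8 was lost without WT CT BMDM number 1 (1.82, adjusted p = 0.213), without WT DX BMDM number 1 (2.73, adjusted p = 0.129) or number 2 (2.33, adjusted p = 0.111), and without any WT-labelled BMDC library except DX number 2 (adjusted p = 0.0693 to 0.0962). WT CT BMDM number 2, with 458 CPM of fibroblast markers against 63.1 CPM in number 1, had the lower control values of Irf2, Irf5 and Irf8; the part of that RNA in these results was not tested.

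**Figure D5:**
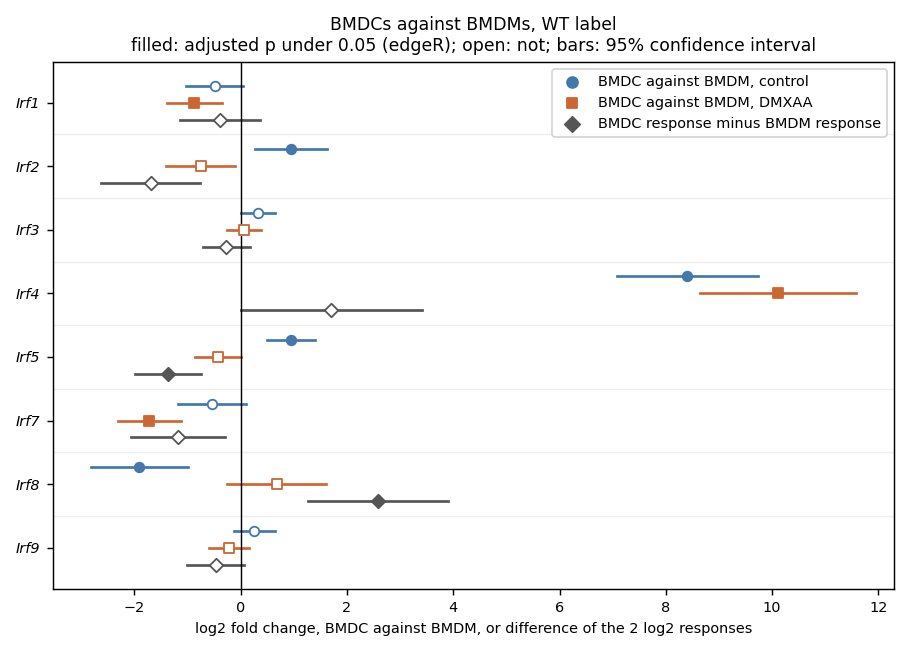
Estimates with 95% confidence intervals for BMDCs against BMDMs of the WT label, in control and DMXAA-treated cells, and for the difference of the log2 responses. Filled symbols passed at an adjusted p under 0.05; Irf4 is far to the right in both treatments, and Irf8 passes from left of 0 in control cells to an open symbol right of 0 under DMXAA.

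Promoter sequence was examined for the members that moved, because IRF, STAT and NF-κB sites are the known routes to their induction. RefSeq windows (GRCm38.p6) from 250 bases before to 50 after each start were found for all 8 members, 11 windows in all, and searched on both strands for GAAANNGAA (paired IRF cores, as in an ISRE), TTCNNNGAA (a STAT site, GAS), GGAANNGAA (an ETS-IRF composite) and GGANTTTCC (the core of an NF-κB site). The GAS letters were present in Irf1 (first base at -90 from the start), Irf2 (-224) and Irf8 (-171 and -153), in 3 of the 11 windows against 8.30% of all 32851 windows. The ISRE letters were present in Irf2 (-241), with 8.56% of all windows, and the composite letters in Irf2 (-247), overlapping the ISRE match, with 8.24%. The NF-κB letters GGANTTTCC were in none of the member windows, with 1.25% of all windows. They cover 1 form of that site, and other forms were not searched, also not in the stretches printed here. A match is a run of letters and not a shown site, and a window without it says nothing of the factor. The stretches of Irf1 (chr11:53769864-53770013), Irf2 (chr8:46739496-46739554) and Irf8 (chr8:120736158-120736257), all on the plus strand, and of Irf7 (chr7:141266482-141266631, minus strand), shown as the promoter of the strongest responder without a match, read 5′ to 3′ as follows, with matched letters in capitals.
Irf1: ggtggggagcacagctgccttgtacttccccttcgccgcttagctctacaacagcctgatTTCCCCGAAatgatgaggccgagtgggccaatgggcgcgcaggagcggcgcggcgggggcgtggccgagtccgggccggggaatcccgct
Irf2: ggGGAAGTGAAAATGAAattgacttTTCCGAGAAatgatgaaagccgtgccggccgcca
Irf8: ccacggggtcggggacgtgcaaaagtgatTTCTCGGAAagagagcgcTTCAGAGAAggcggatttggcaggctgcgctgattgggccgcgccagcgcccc
Irf7: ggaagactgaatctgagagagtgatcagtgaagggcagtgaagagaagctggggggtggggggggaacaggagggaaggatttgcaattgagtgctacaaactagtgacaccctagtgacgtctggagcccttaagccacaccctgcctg

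The genes whose pattern over 20 libraries (without the BMDM libraries numbered 3) was most like each member were sought among 6761 genes, as Pearson's r of log2(FPKM + 1); libraries share treatment groups, so r is a description. Irf7 was closest to the antiviral genes Ifit3 (0.997) and Ifit2 (0.997), Irf1 to the chemokine gene Cxcl10 (0.994) and Tor1aip2 (0.991), and Irf9 to Zcchc2 (0.992) and Tapbpl (0.989). Irf2 was closest to the caspase gene Casp8 (0.980) and Arid4a (0.972), and Irf5 to Nsmaf (0.969) and Coa5 (0.959). Irf4 was closest to Cish (0.998), a STAT5 target, and to Pdcd1lg2 (0.995), which encodes PD-L2. Irf3 (Fbxo9, 0.884; Card9, 0.873) and Irf8 (Ly96, 0.930; Tmem50b, 0.909) had the loosest neighbours. Among members, r was 0.979 between Irf1 and Irf9, 0.964 between Irf1 and Irf7, 0.953 between Irf2 and Irf5, and -0.734 between Irf3 and Irf7.

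Upstream of IRF3 and IRF7, 13 genes of the kinase and adaptor list were tested. DMXAA raised 9 in WT-labelled BMDMs, 2 in CRE-labelled BMDMs, 7 in WT-labelled BMDCs and 6 in CRE-labelled BMDCs, and lowered 0, 0, 1 and 1, where 39.2%, 10.0%, 32.2% and 25.4% of all genes tested were called in either direction. The 2 of 13 in CRE-labelled BMDMs are near that background. Mb21d1, which encodes the DNA sensor cGAS, rose by 1.90 ± 0.29 on the log2 scale in WT-labelled BMDCs, the kinase genes Ikbke and Tbk1 by 1.76 ± 0.54 and 1.56 ± 0.16, and the adaptor gene Tank by 1.69 ± 0.26. The kinase genes did not pass in CRE-labelled BMDMs (Ikbke 0.38 ± 0.19; Tbk1 0.46 ± 0.11, edgeR adjusted p = 0.0501), where WT-labelled BMDMs had 1.92 ± 0.19 and 1.63 ± 0.12.

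Of the 9 receptor and ISGF3 partner genes, 6, 4, 5 and 4 were higher and 1, 0, 1 and 1 lower in the same 4 responses, beside the same shares of all genes (39.2%, 10.0%, 32.2% and 25.4%). Stat2, which encodes a partner of IRF9, rose by 3.79 ± 0.37 in WT-labelled BMDCs and by 4.25 ± 0.37 in CRE-labelled BMDMs. Tyk2, a receptor kinase, rose by 1.05 ± 0.33 and Ifngr1, a chain of the interferon-γ receptor, fell by 1.22 in WT-labelled BMDCs. Of the 9 DNA-binding partners tested, 3, 1, 2 and 2 were higher and 3, 0, 3 and 3 lower, and the 1 of 9 in CRE-labelled BMDMs is near the 10.0% background; Batf2 rose by 4.10 ± 0.36 in WT-labelled BMDCs, whereas Cebpa (-1.71 ± 0.25), Runx1 (-0.76 ± 0.25) and Tcf3 (-0.74 ± 0.16) were lower there.

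The counts of the remaining lists stand beside the same 39.2%, 10.0%, 32.2% and 25.4% of all genes. Of 3 genes for IRF turnover, 2, 1, 1 and 2 were higher, among them the ubiquitin ligase gene Trim21 (3.51 ± 0.16 in WT-labelled BMDCs). Of the 3 genes for IRF2-binding corepressors, 0 were higher in any of the 4 responses and 1, 0, 0 and 0 were lower, the former being Irf2bp2 in WT-labelled BMDMs (-1.27 ± 0.24, edgeR adjusted p = 0.00712; chosen after its value was seen). All 10 genes of the IRF3 and ISGF3 target list were higher in 3 of the responses and 9 in CRE-labelled BMDMs, where Ifnb1, the interferon-β gene, gave 2.37 ± 3.14 (adjusted p = 0.680) against 10.08 ± 1.96 under the WT label. In WT-labelled BMDCs Cxcl10 rose by 15.41 ± 0.97, Ifnb1 by 12.28 ± 0.82, Ifit3 by 11.60 ± 0.58 and Rsad2 by 11.35 ± 0.58. Of the IRF1 target list, 9 of 9, 8 of 9, 9 of 10 and 8 of 10 tested genes were higher, led in WT-labelled BMDCs by Cxcl9 (9.49 ± 0.91), Il27 (7.16 ± 0.90), Nos2 (6.02 ± 0.74) and Gbp2 (4.53 ± 0.35). Between the labels under DMXAA in BMDMs, 9 of 9 tested IRF1 targets and 8 of 10 IRF3 and ISGF3 targets were lower with CRE (median log2 fold change -3.23 and -2.09, beside 0.01 over all genes), where 19.3% of all genes were called, and 4 and 1 of them passed the interaction test, where 3.66% were. The fitted values of genes that were near 0 in control cells, such as Cxcl10 and Ifnb1, depend on the prior count.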

How the data were processed

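RNA was sequenced as polyA libraries made with a kit that does not mark strand. Per the labels, the authors processed the reads against GRCm38 (mm10) with tools that the submitters' processing notes list as CASAVA 1.8, fastp, HISAT2 2.0.5, featureCounts 1.5.0-p3 and DESeq2 1.20.0. The table deposited by the authors holds read counts per gene, not normalized, and FPKM per gene and library; FPKM had been scaled by a library size of 0.687 to 1.33 times the count total. Its gene length column (other) was used for the floor of 3 counts. No per-library column was left unmatched. The authors' fold changes, p-values and group means in the table were not used.

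edgeR 4.0.16 (quasi-likelihood, TMM, two-sided, R 4.3.3) was fitted on the counts, keeping genes that reached 1 FPKM in 2 BMDM (or, for cell types, 2 of all) or 3 BMDC libraries, with group means: 8 BMDM libraries (numbers 1 and 2), 12 BMDC libraries, and 20 for cell types. Benjamini-Hochberg adjustment ran over all genes tested. DESeq2 1.42.0 and limma 3.58.1 on log2(FPKM + 1) were alternatives, with other scalings, filters, libraries left out and replicate blocks. The fits were tested on simulated data. The members and gene lists were chosen with earlier results of these data known. Genes of a list were named by the largest absolute log2 fold changes among those called in WT-labelled BMDCs, at most 4 a list (some are not reported here), and each member's neighbours by the highest 2 correlations among genes whose mean FPKM reached 5. Library closeness used genes with a mean count above 500. Whether replicate numbers pair libraries was checked on deviations from the group means: the correlation within a label was 0.417 to 0.692 in BMDCs for all 3 numbers, and across labels -0.514 to 0.0325, so numbers were taken to pair BMDC libraries within a label, as a reading of the data. Counting intervals and floors cover counting error only.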

Additional observations from a re-analysis of the deposited data

Results flagged for a closer look

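The rise of Irf1 under DMXAA differed between genotype labels in BMDMs, by a test of the difference itself: -2.25 on the log2 scale (95% interval -2.73 to -1.77, edgeR adjusted p = 0.0105), with both CRE DX libraries (42.0 and 46.1 FPKM) below both WT DX libraries (190.4 and 200.3 FPKM). Its call was lost when any CRE-labelled library was left out, and the likeness of those libraries may understate the spread.

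The responses of Irf5 and Irf8 differed between cell types of the WT label by the same kind of test. Irf5 gave -1.37 (BMDC minus BMDM response, adjusted p = 0.0218 in edgeR) and Irf8 gave 2.58 (adjusted p = 0.0381). Both calls were lost when edgeR was fitted on only the groups compared (adjusted p = 0.124 for Irf5 and 0.0676 for Irf8). Irf8 was also not called by limma on log2(FPKM + 1) (adjusted p = 0.0594), and both calls depended on single libraries. In the WT CT BMDM libraries behind both values, Irf5 was 89.2 and 46.1 FPKM and Irf8 31.6 and 13.4 FPKM.

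Irf7 was higher under DMXAA in libraries outside the main tests, with 1 library a group: it was 15.8 FPKM in BMDM WT DX number 3 and 11.6 FPKM in BMDM CRE DX number 3, against 0.714 and 0.150 FPKM in the control libraries of that number. Groups of 3 libraries or fewer were not searched for single outlying libraries.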

How the results depend on the processing

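No member value that passed the main test changed direction under any alternative run. Over the 9 comparisons other than the control-cell label comparison of BMDMs and the 3 label comparisons of BMDCs, 982 single-gene values under alternatives kept direction and side of the threshold, 80 lost the call, 50 gained it and 21 turned direction, all 21 of values that had not passed. In those other 4 comparisons, where no member passed, 65 values turned direction (6 in BMDMs and 59 in BMDCs, the latter between -0.20 and 0.20) and 1 gained a call (Irf8, without WT CT number 1). The count of members called moved by more than 1.5 times as follows. With all BMDM libraries it was 0 in WT-labelled BMDMs (from 5), 0 in CRE-labelled BMDMs (from 3), 0 for CRE against WT under DMXAA (from 4), 0 in the BMDM interaction (from 1), 1 for BMDCs against BMDMs in CT (from 4), 1 in DX (from 3) and 0 in the cell type interaction (from 2); with a replicate block added it was 0 for CRE against WT under DMXAA and 0 in the BMDM interaction. With no filter on low values it was 5 in CRE-labelled BMDMs, 3 in the BMDM interaction, 5 for BMDCs against BMDMs in DX and 4 in the cell type interaction. DESeq2 gave 4 in the BMDM interaction and 4 in the cell type interaction. Fitting only the groups compared gave 7 in CRE-labelled BMDMs and 0 in the cell type interaction, and library totals gave 5 in WT-labelled BMDCs (from 8). Over the alternatives other than all BMDM libraries, calls over all genes moved as well, from 248 to 6389 in CRE-labelled BMDMs (1157 in the main fit). The counts of members in these runs are thus no result about the members alone. Leaving out a library gave 1 to 4 for CRE against WT under DMXAA, 0 to 1 without agonist, 0 to 3 in the BMDM interaction and 0 to 3 in the cell type interaction; where this left 1 library in an arm, its spread was taken from the other groups.

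The replicate block within the genotype label gave 5 in CRE-labelled BMDMs (Irf2, 0.84, adjusted p = 0.00384, and Irf5, 0.85, adjusted p = 0.00794, in edgeR, were added) and 3 in the BMDM interaction, raised the call of all genes in BMDCs from 3904 to 5911 (WT) and from 3084 to 5181 (CRE), and changed the call of Irf3 in CRE-labelled BMDCs and no other member call there; the replicate block over both labels changed no count of members. In BMDMs only 2 numbers were left, so the block rests on the number alone. Blocks of close pairs across labels, chosen after the data were seen like the library totals, the block with all BMDM libraries and the omission of both CRE-labelled BMDC libraries numbered 2, gave 8, 8, 0, 0 and 0 members in the BMDC comparisons. Without those number 2 libraries the CRE-labelled response of Irf4 was 0.58 (adjusted p = 0.0980, edgeR).

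In the 9 comparisons, values turned direction for Irf3 in the BMDM interaction (main 0.03; median-of-ratios scaling -0.031, DESeq2 -0.031, limma -0.054 and -0.058 with pseudocounts 1 and 0.1, all BMDM libraries -0.0013, leaving out a library -0.12 to 0.13), Irf8 in the same interaction (main 0.12; limma -0.066 and -0.076, all BMDM libraries with a block -0.012, leaving out a library -0.63 to 0.58), Irf7 in it (all BMDM libraries with a block 0.50), Irf8 in WT-labelled BMDMs (library totals -0.50, stricter filter -0.020, leaving out a library -0.44 to 0.76) and CRE-labelled BMDMs (library totals -0.085), and, with all BMDM libraries, Irf5 (0.10) and Irf9 (0.023) for BMDCs against BMDMs in DX and Irf1 (0.24) in the cell type interaction. Between the labels in control BMDMs, Irf9 turned to 0.013 without CRE CT number 1, Irf3 to -0.019, Irf5 to -0.053 and Irf8 to -0.0048 without WT CT number 2, and Irf1 to -0.043 and Irf2 to -0.064 with all BMDM libraries and a block. The cause was not tested.

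Over alternatives other than all BMDM libraries, genes called ran from 1687 to 6833 (main 4531) in WT-labelled BMDMs, 248 to 6389 (1157) in CRE-labelled BMDMs, 313 to 3630 (2228) for CRE against WT under DMXAA, 0 to 700 (5) without agonist, 0 to 1702 (424) in the BMDM interaction, 1853 to 5667 (3084) in CRE-labelled BMDCs, 2842 to 6309 (3904) in WT-labelled BMDCs, 2548 to 4659 (4092) for the cell types under DMXAA and 134 to 836 (349) in the cell type interaction. With 2 BMDM libraries a group, uncalled members cannot be read as equal.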

Other observations

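Irf8 and Irf4 had 0 reads in the WT-labelled BMDM libraries numbered 3, in which Irf3 was 5.26 (CT) and 5.02 FPKM (DX) and Irf2 2.75 and 2.82 FPKM; under the CRE label Irf3 was 5.56 and 5.91 FPKM and Irf2 1.58 and 2.12 FPKM.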
